A study of Mus musculus with 4 samples.

Results

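Ligands and receptors that steer growing axons were followed in cells sorted from the mouse retina at embryonic stage E17.5. They are the semaphorins and their plexin and neuropilin receptors, the Slits and their Robo receptors, the netrins with Dcc, Neo1 and the Unc5 family, and the ephrins with their Eph receptors. Genes were chosen by symbol from the platform annotation, with earlier results of these data known but no measured value in the choice of symbols. Of 18920 genes with a feature of their own, 68 were found, 34 ligands and 34 receptors. A feature is a set of probes read as a single value, and the 68 genes had 72 features, and the feature with the highest mean intensity stood for its gene. Unc50, a protein of intracellular membranes, and Unc5cl, a cytoplasmic signalling protein, entered the receptors by their symbols and are not netrin receptors.

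The mice carried BAC-Crx-EGFP, a long genomic transgene in which EGFP reports activity of the regulatory sequences of the photoreceptor gene Crx, on the 129Sv/Ev genetic background. Dissociated retinal cells were sorted by EGFP signal into a positive and a negative fraction, each measured as 2 samples on 1 array per sample. Both fractions carry the transgene, so the comparison is between cells that differ in reporter activity, and the negative fraction holds every retinal cell without detectable EGFP. Whether replicates are separate animals, litters or sorts is not in the labels, so the p-values rest on a spread between samples that could be purely technical.

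The fractions matched their labels on photoreceptor markers and also differed in other cell types. Crx read 3628.7 and 4758.8 in positive samples and 292.2 and 370.1 in negative samples. All 12 photoreceptor markers listed for this check had a positive difference, 9 of them called at an adjusted p under 0.05. The 13 amacrine and horizontal cell markers all had a positive difference too, 2 of them called. Limma gave 10 of these 13 an unadjusted p under 0.05, or 76.9%, against 9.34% of all features that were higher. All 12 measured cell cycle markers had a negative difference, none called by limma and 11 at an unadjusted p under 0.05. Of 11 progenitor markers, 9 had a negative difference and Sox2 was called, with 6 lower at an unadjusted p under 0.05 and a median of -0.80. The retinal ganglion cell markers differed mainly between replicates: 13 of 15 were higher in replicate 2 of both fractions. In samples of sorted cells, a lower share of a cell type and less RNA per cell cannot be told apart.

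Guidance molecules act as secreted or membrane-bound cues that attract or repel a growth cone, the motile tip of an axon, through receptors on its surface. Class 3 semaphorins are secreted and signal through neuropilins and A-type plexins, the other vertebrate classes are mostly membrane-bound and bind plexins directly, and Slits repel axons through Robo receptors. Netrins attract through Dcc and repel with Unc5 receptors, and ephrins, which sit in the membrane, signal by contact with Eph receptors. In the developing retina these systems guide ganglion cell axons to the optic nerve and place their endings in a map of the visual field, and semaphorins and plexins also sort neurites into layers.

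In the EGFP-positive fraction 4 guidance genes were higher: the receptors Epha8 and Plxna2 and the ligands Sema3f and Sema7a. The largest difference was that of Epha8, at 7.21-fold, and the other 3 were 1.96-fold to 2.24-fold higher. No guidance gene was called lower by limma, while 5 had a negative difference at an unadjusted p under 0.05. The test was limma on log2 intensity over all 22431 features, with Benjamini-Hochberg adjusted p under 0.05 as the call, and by it 0.820% of all features were higher and 0.143% lower. The 4 calls make up 5.88% of the 68 genes. Only 2 of the 68 had a mean below the lower quartile of all features, so the genes and all features are not alike in intensity.

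**Figure D1:**
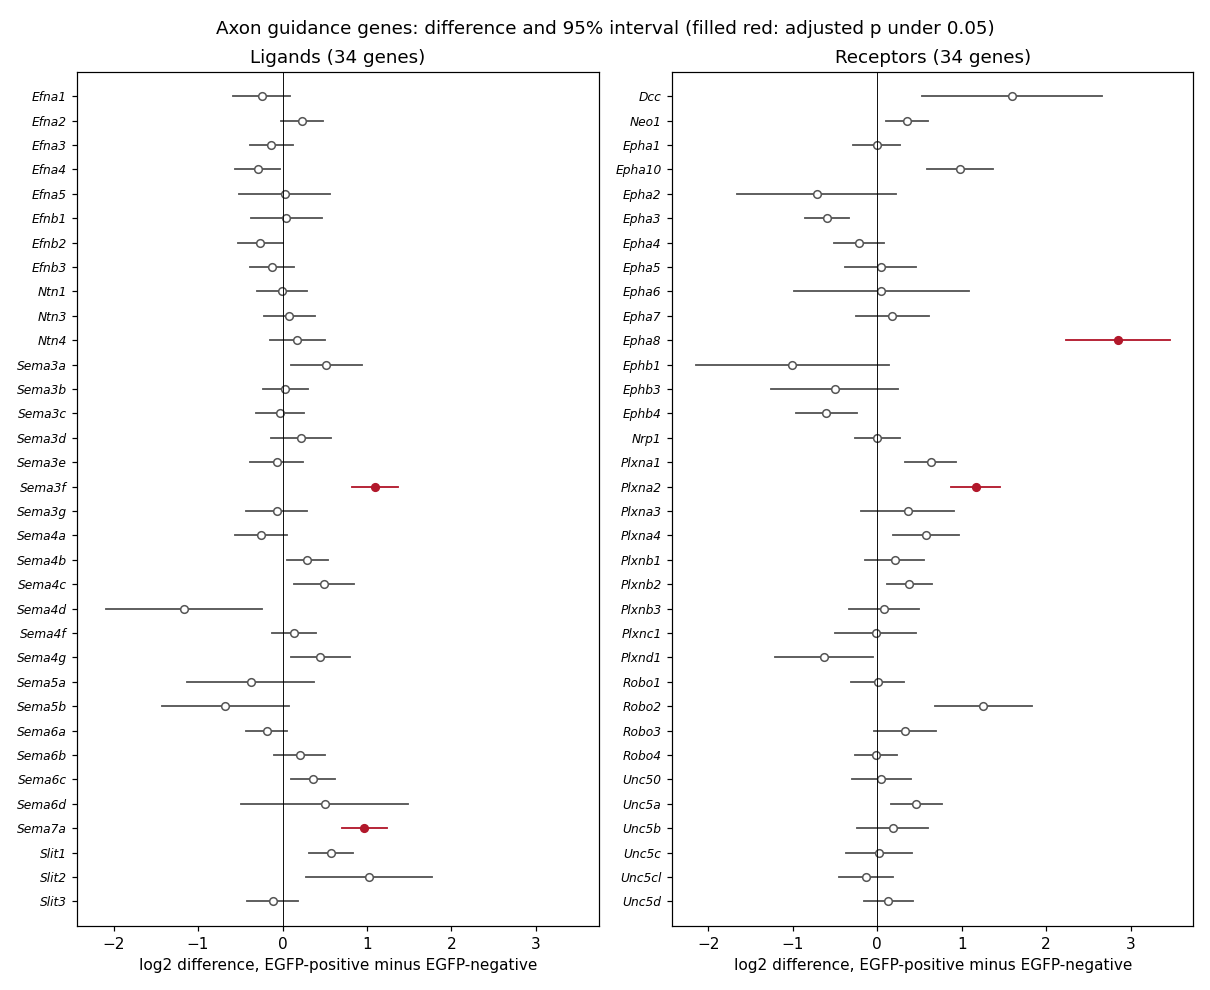
Log2 difference (EGFP-positive minus EGFP-negative, horizontal axis) of each of the 34 ligands and 34 receptors, with limma's 95% interval as a line; filled red points have an adjusted p under 0.05. Epha8 stands farthest to the right at 2.85, Sema4d and Ephb1 farthest to the left at -1.16 and -1.01, and Unc50 and Unc5cl are shown among the receptors although they are not guidance receptors.

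Epha8 encodes a receptor tyrosine kinase that binds ephrin-A ligands. It read 1783.1 and 1083.4 in positive samples and 194.5 and 190.8 in negative samples. Both positive samples lay far above both negative ones, although they differed from each other, with a log2 intensity of 10.44 ± 0.51 against 7.59 ± 0.02 (SD, n = 2 per fraction). The log2 difference was 2.85 ± 0.24 (SE, limma adjusted p = 0.0187).

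Plxna2 encodes plexin A2, a receptor for semaphorins of classes 3 and 6. It read 1396.2 and 1316.8 in positive samples and 646.9 and 567.1 in negative samples, a difference of 1.16 ± 0.12 on the log2 scale (adjusted p = 0.0289). Sema3f, a secreted repellent that signals through neuropilin and A-type plexins, read 1616.7 and 1783.3 against 802.7 and 788.6 (1.09 ± 0.11, adjusted p = 0.0272). For both genes the samples of a fraction lay close together and the fractions were well apart. Sema7a, a membrane-anchored semaphorin that binds plexin C1 and integrins, read 481.1 and 500.0 against 239.4 and 262.8 (0.97 ± 0.11, adjusted p = 0.0349).

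These calls depended on which arrays entered the fit. With 1 array left out, its fraction is a single sample that is assumed to vary like the pair in the other fraction. Without positive replicate 2, Epha8 and Plxna2 were called (adjusted p = 0.00302 and 0.0480), and Sema3f and Sema7a were not (adjusted p = 0.0538 and 0.0727), with 0.655% of all features called higher. Without negative replicate 1 or negative replicate 2, limma called none of the 22431 features, with 2346 and 3134 at an unadjusted p under 0.05, and the log2 difference of Epha8 was 2.86 and 2.84. Without positive replicate 1, 8 guidance genes were called higher and 5 lower, as were 2.97% and 3.40% of all features.

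The promoters of called genes are shown because these genes were higher in the same sorted fraction. CpG content is a sequence feature that the choice of genes did not use. RefSeq promoter windows of assembly GRCm38.p6, 250 bases before to 50 after a start site, were found for 58 of the 68 genes, among them 3 of the 4 called ones. The 250 bases before the start are written 5′ to 3′ on the strand of the gene, with CpG dinucleotides in capitals, for Epha8 (chr4:136956817-136957066, minus strand), Plxna2 (chr1:194619579-194619828, plus strand) and Sema7a (chr9:57939862-57940111, plus strand).
Epha8: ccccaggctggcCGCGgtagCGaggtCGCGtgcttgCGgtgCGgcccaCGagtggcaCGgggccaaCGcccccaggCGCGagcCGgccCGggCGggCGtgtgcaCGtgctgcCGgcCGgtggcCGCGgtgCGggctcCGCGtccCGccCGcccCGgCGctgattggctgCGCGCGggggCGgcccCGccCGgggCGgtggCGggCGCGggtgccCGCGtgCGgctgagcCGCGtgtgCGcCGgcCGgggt
Plxna2: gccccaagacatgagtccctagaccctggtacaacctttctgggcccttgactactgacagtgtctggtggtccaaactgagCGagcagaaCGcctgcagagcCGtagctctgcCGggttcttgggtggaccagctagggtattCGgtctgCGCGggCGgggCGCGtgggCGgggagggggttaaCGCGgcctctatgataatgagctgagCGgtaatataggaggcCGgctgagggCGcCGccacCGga
Sema7a: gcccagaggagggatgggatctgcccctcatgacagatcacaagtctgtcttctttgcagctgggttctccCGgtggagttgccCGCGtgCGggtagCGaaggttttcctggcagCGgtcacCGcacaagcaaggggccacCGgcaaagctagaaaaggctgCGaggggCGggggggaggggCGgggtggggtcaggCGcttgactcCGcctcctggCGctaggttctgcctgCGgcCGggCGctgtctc

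The Epha8 stretch holds 46 CpG dinucleotides and has 84.0% G and C, against 18 and 62.8% for Plxna2 and 17 and 66.4% for Sema7a. Of the 74 windows of guidance genes, 56.8% had over 50% G and C with a ratio of observed to expected CpG over 0.6, against 33.3% of all 32851 windows in the table, which include genes of every kind. TAATCC, the core sequence bound by Crx and Otx2, was searched on both strands of the windows. It was found in 2 of the 74, those of Robo3 and Robo4, or 2.70%, against 7.06% of all windows, and in none of the 3 called genes' windows. The 2 sets of windows are not alike in base composition, with a median G and C of 64.17% against 52.67%. The part of base composition in the shares with TAATCC was not tested. These letters are a description of the windows, which cover only the sequence next to a start site.

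Among the semaphorins, 12 of 20 had a positive and 8 a negative difference. Both called ligands were semaphorins, and 7 of the 20 were higher and 1 lower at an unadjusted p under 0.05, against 9.34% and 9.83% of all features. Of the 7 secreted class 3 members, Sema3a, a repellent of many axons, read 325.9 and 362.9 in positive samples and 208.2 and 276.9 in negative samples (log2 difference 0.52 ± 0.17, adjusted p = 0.188). The fractions of Sema3a did not overlap, but the negative samples were spread. The other 5, Sema3b, Sema3c, Sema3d, Sema3e and Sema3g, differed by -0.07 to 0.22, and Sema3c and Sema3d had means below the lower quartile of all features, an intensity of 108.

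The class 4 semaphorins, which span the membrane, included both directions. Sema4c read 922.3 and 1137.8 in positive samples and 695.3 and 765.9 in negative samples (log2 difference 0.49 ± 0.14, adjusted p = 0.158). Sema4g and Sema4b differed by 0.45 and 0.29 (adjusted p = 0.177 and 0.197). Sema4d, which binds plexin B1, read 610.4 and 285.2 in positive samples and 1041.7 and 839.7 in negative samples. Its positive samples were both lower and far apart from each other, and its difference of -1.16 ± 0.36 was the most negative of all 68 genes (95% interval -2.09 to -0.24, adjusted p = 0.181). It was -1.71 without positive replicate 1, -0.62 without positive replicate 2, and -1.01 and -1.32 without negative replicates 1 and 2.

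Both class 5 semaphorins, and Sema6d of class 6, varied between replicates. Sema5a and Sema5b, which repel neurites in the inner retina, had intensities of 716.5 and 483.4, and of 347.3 and 216.7, in positive replicates 1 and 2. In negative replicates 1 and 2 they read 979.1 and 596.1, and 542.0 and 356.2. Both genes were lower in replicate 2 of each fraction, so the fractions of Sema5a overlapped and those of Sema5b were only just apart (log2 differences -0.38 ± 0.30 and -0.68 ± 0.30, adjusted p = 0.602 and 0.307). Sema6d read 202.4 and 432.4 in positive samples and 172.2 and 253.9 in negative samples, higher in replicate 2 of each fraction (0.50 ± 0.39, adjusted p = 0.596). Sema6b and Sema6c differed by 0.20 ± 0.12 and 0.36 ± 0.10 (limma adjusted p = 0.448 and 0.150). Sema6a, a ligand of plexins A2 and A4, differed by -0.19 ± 0.10 (95% interval -0.43 to 0.06). The fractions of Sema6a, Sema6b and Sema6c did not overlap, and their replicates differed by up to 0.20 on the log2 scale.

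All 4 A-type plexins had positive differences, at a median of 0.60, and Plxna2 was the one called. Plxna1 read 1104.4 and 1247.9 in positive samples and 718.7 and 795.7 in negative samples (log2 difference 0.63 ± 0.12, adjusted p = 0.0850). Plxna4 read 332.1 and 414.7 against 269.2 and 230.9 (0.57 ± 0.15, adjusted p = 0.142). The fractions of both genes were apart, while those of Plxna3, at 571.9 and 819.6 against 469.5 and 603.6, overlapped (0.36 ± 0.22, adjusted p = 0.464). Nrp1, the neuropilin that binds Sema3a, read 260.8 and 248.9 in positive samples and 245.5 and 264.5 in negative samples, with a 95% interval of the log2 difference from -0.26 to 0.26. Nrp2 was also among the chosen symbols but had no feature of its own, so Nrp1 is the only neuropilin read here.

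The other plexins were likewise mixed. Plxnb2 differed by 0.38 ± 0.10 (adjusted p = 0.150), Plxnb1, the receptor of Sema4d, by 0.21 ± 0.14 (adjusted p = 0.523) and Plxnb3 by 0.08 ± 0.16. Plxnc1, the receptor of Sema7a, read 789.7 and 1131.6 in positive samples and 986.7 and 932.0 in negative samples, with the negative values lying between the positive ones (95% interval -0.50 to 0.46). Plxnd1, known from blood vessels as the receptor of Sema3e, read 394.8 and 251.1 against 515.7 and 462.8 (-0.63 ± 0.23, adjusted p = 0.226). The ligand Sema3e itself differed by -0.07 (95% interval -0.39 to 0.25).

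**Figure D2:**
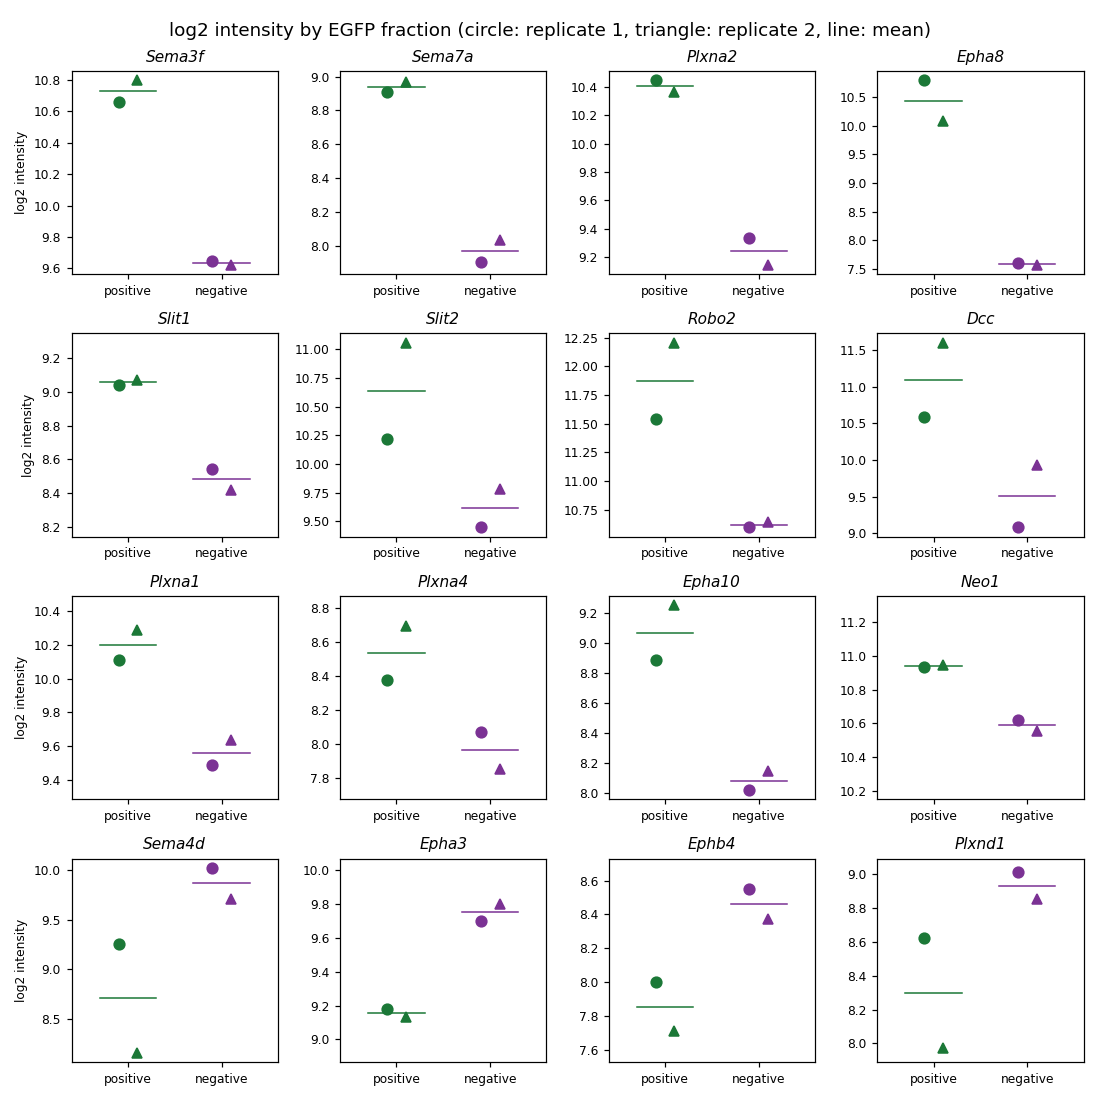
Log2 intensity (vertical axis, scaled for each gene) of 16 guidance genes in the EGFP-positive (green) and EGFP-negative (purple) samples; circles are replicate 1, triangles replicate 2 and lines the mean of a fraction. The 16 genes are a selection in which the fractions of every gene are apart. Those of 30 of all 68 genes overlap, as do those of 11763 of all 22431 features. Epha8 has positive values of 10.44 ± 0.51 and negative values of 7.59 ± 0.02 (SD), and Dcc and Slit2 are higher in replicate 2 of both fractions.

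Among the Slits and Robos, none of the 7 genes was called by limma. At an unadjusted p under 0.05, 3 were higher, Slit1, Slit2 and Robo2, and 0 lower (9.34% and 9.83% of all features). Slit1 read 526.2 and 537.4 in positive samples and 373.9 and 342.4 in negative samples, tight within each fraction (log2 difference 0.57 ± 0.10, adjusted p = 0.0836). Slit2, a repellent of ganglion cell axons, read 1191.4 and 2134.6 against 698.0 and 878.3 (1.03 ± 0.29, adjusted p = 0.158). Its positive samples differed from each other by 0.84 on the log2 scale, and the difference was 1.45 without positive replicate 1 (adjusted p = 0.0158) and 0.61 without positive replicate 2 (adjusted p = 0.256). Without either negative array Slit2 was not called (adjusted p = 0.547 and 0.317). Slit3 differed by -0.12 ± 0.12 (95% interval -0.43 to 0.19).

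Robo2, the Robo receptor through which Slits act on ganglion cell axons, read 2983.8 and 4728.7 in positive samples and 1549.4 and 1601.6 in negative samples. Both positive samples were clearly higher, by 1.25 ± 0.23 on the log2 scale, and their spread was larger than that of the negative ones (adjusted p = 0.0832). The difference was 1.59 without positive replicate 1, 0.92 without positive replicate 2, and 1.23 and 1.28 without negative replicates 1 and 2. Robo3, a divergent family member known from midline crossing, differed by 0.33 ± 0.15 (adjusted p = 0.315). Robo1 read 716.8 and 602.0 against 668.0 and 643.3, with the negative values between the positive ones (95% interval -0.31 to 0.32). Robo4, a receptor of endothelial cells, read 122.1 to 127.0 on the 4 arrays, and the endothelial marker Pecam1 read 110.4 to 110.5. The lower quartile of all features was an intensity of 108, so Pecam1 was close to it.

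In the netrin system, none of the 11 genes of the netrin, Dcc, Neo1 and Unc5 groups was called by limma. These 11 include Unc50 and Unc5cl. At an unadjusted p under 0.05, 3 were higher, the receptors Dcc, Neo1 and Unc5a, and 0 lower (again 9.34% and 9.83% of all features). Dcc, the attractive netrin receptor, read 1539.0 and 3117.8 in positive samples and 540.6 and 976.7 in negative samples. Every positive value exceeded every negative one, and in each fraction replicate 2 was higher, by 1.02 and 0.85 on the log2 scale. The difference between the fractions was 3.01-fold (log2 difference 1.59 ± 0.42, adjusted p = 0.138), the second largest of the 68 genes. It was 2.10 without positive replicate 1, 1.08 without positive replicate 2, and 1.17 and 2.02 without negative replicates 1 and 2.

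Neo1, a relative of Dcc that binds netrins and RGM proteins, read 1953.4 and 1974.7 against 1574.8 and 1507.1 (0.35 ± 0.10, adjusted p = 0.152). Unc5a, a repulsive netrin receptor, read 262.9 and 265.9 against 207.6 and 177.3 (0.46 ± 0.12, adjusted p = 0.133). The replicates of these receptors were close in the positive fraction and the differences small. Unc5b, Unc5c and Unc5d differed by 0.02 to 0.18, and the symbol matches Unc50 and Unc5cl by 0.05 and -0.13. The ligand Ntn1, which draws ganglion cell axons into the optic nerve head, read 196.4 and 212.4 in positive samples and 219.2 and 191.9 in negative samples (95% interval -0.31 to 0.29). Ntn3 and Ntn4 differed by 0.08 and 0.18, and the fractions of all 3 netrins overlapped.

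The 12 Eph receptors held the largest positive difference, that of Epha8, and several negative ones. Epha10, a family member without kinase activity, read 471.9 and 608.2 in positive samples and 259.9 and 283.3 in negative samples (log2 difference 0.98 ± 0.15, adjusted p = 0.0677). Its other feature differed by 0.53 (adjusted p = 0.178). Epha3 had a negative difference, at 579.2 and 561.6 against 831.4 and 892.5, with little spread in either fraction (-0.59 ± 0.10, adjusted p = 0.0785). Epha4, Epha5, Epha6 and Epha7, receptors known from the mapping of retinal axons, differed by -0.22, 0.04, 0.05 and 0.18. Epha6 read 104.4 and 194.5 in positive samples and 100.2 and 190.1 in negative samples, so that replicates with the same number were alike and the fractions overlapped.

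All 3 measured EphB receptors had a negative difference and were lower in replicate 2 of both fractions. Ephb4, known from veins, read 256.3 and 209.3 in positive samples and 374.8 and 331.7 in negative samples (-0.61 ± 0.14, adjusted p = 0.116). Ephb1, which turns ganglion cell axons to the same side at the optic chiasm, read 507.9 and 216.9 against 859.6 and 517.2 (-1.01 ± 0.45, adjusted p = 0.320, and -0.80 with adjusted p = 0.113 for its other feature). Ephb3 read 389.5 and 251.1 against 558.2 and 353.1 (-0.51 ± 0.30, adjusted p = 0.457). The fractions of Ephb1 and Ephb4 were apart and those of Ephb3 overlapped. Epha2 showed the same order of samples as Ephb3, and its fractions overlapped too. It read 749.4 and 364.0 in positive samples and 1032.4 and 716.0 in negative samples (-0.72 ± 0.37, adjusted p = 0.390).

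Without positive replicate 1, Ephb1, Epha2, Ephb4 and Plxnd1 had log2 differences of -1.62, -1.24, -0.75 and -0.96. Without positive replicate 2 the same genes had -0.39, -0.20, -0.46 and -0.31. They had -0.64, -0.46, -0.52 and -0.56 without negative replicate 1, and -1.37, -0.98, -0.69 and -0.71 without negative replicate 2. Epha10 had 1.16 without positive replicate 1, 0.80 without positive replicate 2, and 0.92 and 1.04 without negative replicates 1 and 2. Each of these fits rests on 1 sample in a fraction. Of the endothelial markers Pecam1, Cdh5 and Tek, the differences were 0.0007, 0.02 and -0.09. Kdr, an endothelial receptor that retinal progenitors also express, read 3171.2 and 1107.0 in positive samples and 4888.5 and 2883.9 in negative samples. The 9 endothelial markers summed to 2260.7 to 4311.2 in the positive and 3968.1 to 6022.6 in the negative samples, a sum in which Kdr had the largest part.

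The ephrins differed little between the fractions. None of the 8 was called by limma, and 1 was lower at an unadjusted p under 0.05, as were 9.83% of all features. The differences of the 8 ephrins ran from -0.29 to 0.23. Efna4, at 284.2 and 258.5 against 328.7 and 336.3, had a difference of -0.29 ± 0.11 (adjusted p = 0.224), and Efna2, at 599.1 and 623.6 against 515.0 and 524.2, one of 0.23 ± 0.10 (adjusted p = 0.287). Efnb2, which marks dorsal retina and the optic chiasm, read 1375.1 and 1269.9 in positive samples and 1542.2 and 1635.4 in negative samples (-0.27 ± 0.11, adjusted p = 0.265). The samples of each of these 3 genes separated the fractions. Those of Efna1, Efna3 and Efnb3 did so too, with lower values in the positive samples. Without overlap, 3 ephrin-A genes were lower and 1 higher, and 2 ephrin-B genes were lower. Over all features, 25.3% were lower and 22.3% higher without overlap. The 95% interval was -0.59 to 0.09 for Efna1, -0.39 to 0.12 for Efna3 and -0.51 to 0.57 for Efna5. These ephrin-A proteins belong to the class of ligands that EphA receptors bind.

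Over all 68 genes, 41 had a positive and 27 a negative difference, with a median of 0.05 against -0.01 over all features. The median was 0.04 for the ligands and 0.07 for the receptors, or 0.11 for the 32 receptors without Unc50 and Unc5cl. The fractions did not overlap in 24 genes that were higher and 14 that were lower in the positive samples, 35.3% and 20.6% of the 68, against 22.3% and 25.3% of all features. At an unadjusted p under 0.05, 19 were higher and 5 lower, 27.9% and 7.35%. At least 2-fold higher were 6 genes, Epha8, Dcc, Robo2, Plxna2, Sema3f and Slit2, and at least 2-fold lower Sema4d and Ephb1, against 1.19% and 1.02% of all features. Differences under 0.5 in size on the log2 scale were found for 47 of the 68.

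The difference between replicates was as large as that between fractions for some of these genes. In both fractions, 21 of the 68 were higher in replicate 2 and 23 were lower, 30.9% and 33.8%, near the 29.0% and 32.4% of all features. Dcc, Epha6, Sema6d and Slit2 were higher in replicate 2 of the positive fraction by 0.84 to 1.10 on the log2 scale and of the negative fraction by 0.33 to 0.92. Ephb1, Epha2, Ephb3, Sema4d, Sema5a and Sema5b were lower there by 0.57 to 1.23 in the positive and by 0.31 to 0.73 in the negative fraction.

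**Figure D3:**
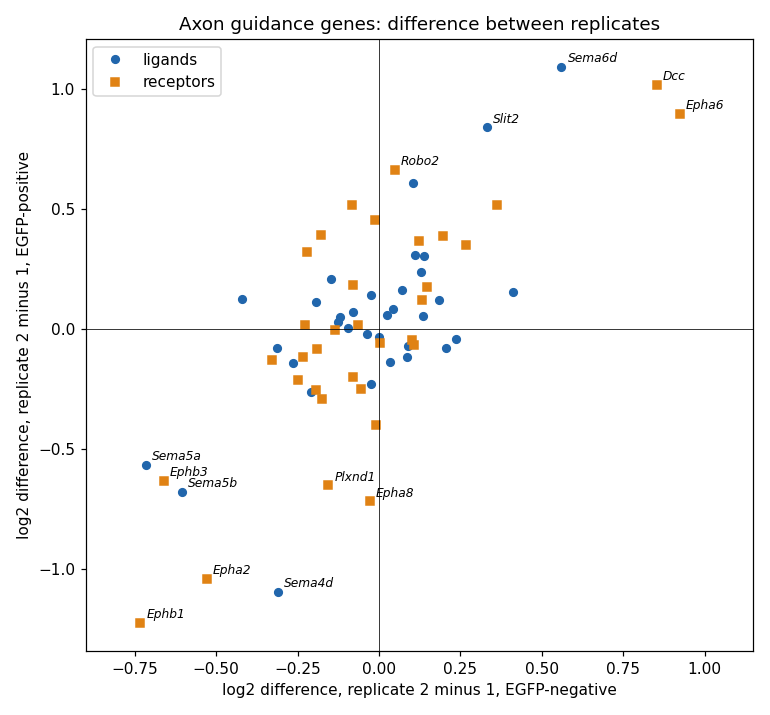
Log2 difference of replicate 2 minus replicate 1 in the EGFP-negative (horizontal axis) and the EGFP-positive fraction (vertical axis) for the 34 ligands (blue circles) and 34 receptors (orange squares). Dcc, Epha6 and Sema6d lie at the upper right and Ephb1, Epha2, Ephb3, Sema5a and Sema5b at the lower left, while Epha8 differed by -0.72 between the positive and by -0.03 between the negative samples.

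Some markers of other cell types also differed between replicates, mainly those of ganglion cells and of the cell cycle. The 15 retinal ganglion cell markers summed to 7937.6 and 13174.0 in positive samples and 5820.9 and 12330.5 in negative samples, and their median difference of replicate 2 minus replicate 1 was 0.70 and 1.14. The 12 cell cycle markers were lower in replicate 2 of both fractions, all of them, with sums of 9139.0 to 18613.6 in the positive and 25646.4 to 32626.6 in the negative samples. The 11 progenitor markers, 8 of them lower in replicate 2 of both fractions, summed to 19314.2 to 25188.7 in the positive and 34871.2 to 34935.3 in the negative samples. The 13 amacrine and horizontal cell markers summed to 8450.1 to 10578.8 in the positive and 5929.6 to 5991.4 in the negative samples. They had no common direction between replicates, with 6 higher and 5 lower in replicate 2 of both fractions. None of the markers is at 0, since every feature on the arrays has a value above it, and the part of these cell types in the differences of the guidance genes was not tested.

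Other genes of the pathway were read from lists of proteins that act inside the growth cone and of further guidance and adhesion molecules. Of 43 measured intracellular effectors none was called by limma, with 11 higher and 3 lower at an unadjusted p under 0.05, or 25.6% and 6.98% against 9.34% and 9.83% of all features, and a median of 0.16. The largest differences were those of Dpysl3, a cytoskeletal protein of the collapsin response mediator family, at 4363.8 and 6071.7 in positive samples and 1482.7 and 2419.8 in negative samples (1.44 ± 0.28, adjusted p = 0.0870), and of the Rac activator Dock1, at 561.7 and 358.8 against 987.4 and 836.9 (-1.02 ± 0.23, adjusted p = 0.111). Of 20 other guidance and adhesion genes 1 was called higher, or 5%, against 0.820% of all features. At an unadjusted p under 0.05 limma gave 2 higher and 3 lower, or 10% and 15%, and the median was 0.03. The called gene was Dscam, which keeps neurites of like cells apart and binds netrin. It read 576.7 and 576.8 against 253.1 and 199.6 (1.36 ± 0.14, adjusted p = 0.0306). The axonal adhesion gene Cntn1, chosen after its values were seen, read 1264.2 and 2865.8 against 447.1 and 400.7 (2.17 ± 0.38, adjusted p = 0.0798).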

How the data were processed

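Gene expression was measured on 1 array for each of 2 EGFP-positive and 2 EGFP-negative samples. Values deposited by the authors are normalised intensities, not on a log scale. RMA and genome build mm8 are named, per the submitters' processing notes, with version and filters not given in the sources used here. The linear scale of these intensity values was inferred from the range of 18.9 to 36625.2. Array medians were 218.4 to 222.9.

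Log2 was taken without an offset. Fractions were compared with limma 3.58.1 in R 4.3.3 (lmFit, eBayes without a trend, no block) over all 22431 features, two-sided, with Benjamini-Hochberg adjustment over all of them. Errors are moderated standard errors, and intervals are 95%. The number of arrays limits the precision, with a median SE of 0.12. Of the features, 20176 had 1 symbol, 412 several and 1843 none, and those without a single symbol named no gene.

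Guidance genes and lists were chosen with earlier results of these data known. Full values went to called genes, to up to 10 genes per direction at an unadjusted p under 0.05 and to the extremes of each subfamily, and other genes are given as examples. Coordinates are only those of the promoter windows, since the array's build differs. The pipeline was tested on simulated data. Alternatives were trend and robust variance, median centring, renewed quantile normalisation, a 25th percentile filter, an offset of 16, the mean of a gene's features, a replicate block and each array left out.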

Additional observations from a re-analysis of the deposited data

How the results depend on the processing

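The 4 called genes, Epha8, Plxna2, Sema3f and Sema7a, were called under variance trend, both rescalings, the filter on low features, the offset of 16, the fit over gene means and the replicate block. All 4 were called without positive replicate 1, Epha8 and Plxna2 without positive replicate 2, and none of them without either negative array. The number of guidance genes called higher ranged from 0 to 8 and lower from 0 to 5 over the fits without 1 array. Over the same fits, 0 to 667 features were called higher and 0 to 762 lower. The median difference ranged from 0.019 to 0.15 over all guidance genes, from -0.0044 to 0.10 over the ligands and from 0.036 to 0.24 over the receptors. The fit over gene means called 51 features lower against 32.

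With the replicate number as a block, 14 guidance genes were called higher and 8 lower, and 1377 and 1500 of all features. Nothing in the labels says that the numbers pair the samples. The difference of replicate 2 minus replicate 1 correlated between the fractions at Pearson's r = 0.48 over all features and 0.74 over the 68 guidance genes, as a description only.

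Differences close to 0 changed sign. With centred arrays Nrp1, Ntn1 and Robo4 had 0.024, 0.018 and 0.013, and after renewed quantile normalisation Nrp1 and Ntn1 had 0.024 and 0.0045. Over the fits without 1 array, the difference ranged from -0.054 to 0.053 for Nrp1, from -0.102 to 0.090 for Ntn1, from -0.040 to 0.017 for Robo4 and from -0.165 to 0.256 for Efnb1.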
